A study of Mus musculus with 9 samples.

Results

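The enzymes of prostaglandin and leukotriene synthesis were described in sorted mouse neutrophils as 10 genes: Ptgs1, Ptgs2, Ptges, Ptgds, Alox5, Alox5ap, Alox12, Alox15, Lta4h and Ltc4s. Members were the array probes annotated to 1 of these symbols, control probes left out, which gave 12 probes of 55681 and 10 gene names of 34797. Ptges and Alox12 had 2 probes each and every other gene had 1.

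The study compared neutrophils from benign and malignant skin lesions with neutrophils from the skin around them. All mice were of the FVB/N strain, and the skin groups carried the same exposure as the lesions: DMBA, a carcinogen, at 6 and 13 weeks of age, and PMA, a phorbol ester that promotes tumors, applied 2 times a week from week 1 to week 18 to 20. Gr-1bright cells were sorted from papillomas (3 arrays), from tumors (2 arrays), and from the skin beside either lesion (2 arrays each), called papilloma skin and tumor skin. Each array held RNA pooled from mice, so that differences between animals could not be read, and no group came from untreated skin. By the study's methods, collagenase IV alone was used on the skin and dispase II and DNase I were added to it for the lesions, so that effects of the digestion and of the lesion cannot be told apart.

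Both pathways start from arachidonic acid, which phospholipases A2 release from membranes. Cyclooxygenases turn it into prostaglandin H2, from which terminal synthases make prostaglandin E2, prostaglandin D2 and thromboxane, while 5-lipoxygenase and its activating protein make leukotriene A4, the precursor of leukotriene B4 and of the cysteinyl leukotrienes. Neutrophils are known as a source of leukotriene B4, which attracts further neutrophils, and prostaglandin E2 is known as a promoter of skin tumors in mice.

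Values are log2 of the array signal as the authors deposited it, so that a difference of 1 is a doubling. Differences were tested with limma over all 55681 probes, and a probe was called when its Benjamini-Hochberg adjusted p was at most 0.05, its difference at least 1 and its mean level at least 6. Errors of differences are standard errors (SE).

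The columns did not all match the scanner output of the same label. Across probes, the papilloma skin 1 column had a rank correlation of 0.588 with its own scanner file and 0.924 with that of tumor 2. The tumor 1 column had 0.827 with its own and 0.947 with that of tumor 2. For papilloma 2 the best match was the file of papilloma 3 (0.981) and for papilloma 3 that of papilloma 2 (0.959), and the remaining 5 columns ranked closest to their own file, at 0.931 to 0.980. Among the 9 columns themselves, papilloma skin 1 had its highest Pearson correlation with papilloma skin 2 (0.983) and tumor 1 with tumor 2 (0.986), which are the columns of their own groups. Spike-in controls, RNAs added in known amounts, had a slope of signal on amount of 0.678 in papilloma skin 1, 0.876 in tumor skin 1 and 0.894 in tumor 1, against 1.04 to 1.06 in the other 6 arrays. In those 3 arrays at least 90.7% of probes were well above background, against 43.5 to 63.5% in the others. Results are therefore also given without papilloma skin 1 and tumor 1, called the 7 columns, which leaves 1 column in each of those groups, assumed to vary like the other groups. Arrays were on 3 slides, and values within a slide take the slide of each column from its label, papilloma 2 and papilloma 3 included. The study's methods name a ComBat step against the slide, and whether the deposited columns had been through it is not said, so that a slide term may correct for slide a second time.

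The neutrophil label was checked against a marker list of 8 genes and 10 probes. S100a8 lay at 17.88 to 18.22, S100a9 at 18.45 to 18.63 and Csf3r at 16.68 to 16.89 in the 9 columns, and none of the 10 probes was at background. Ly6g, the antigen that Gr-1 antibodies bind best, ranged from 9.30 in papilloma 1 to 12.65 in tumor skin 1 and fell by 2.09 in tumor against tumor skin (SE 0.327, adjusted p = 0.00894). Mmp8, a collagenase of neutrophil granules, fell by 1.95 in papilloma against papilloma skin (SE 0.263, adjusted p = 0.00498) and by 1.92 in tumor against tumor skin (SE 0.288, adjusted p = 0.00782). These were the only calls of the list in the lesion comparisons, and at an unadjusted p under 0.05 it had 4 probes lower in papilloma and 5 lower in tumor, with none higher. Of all probes, 20.7% and 26.9% had such a p there, which stands beside every list count below. At that p, 4 neutrophil probes were higher in tumor skin than in papilloma skin and 3 higher in tumor than in papilloma, with 0 lower. Of all probes, 22.7% and 14.4% had such a p in these comparisons. Ly6g differed by -1.08 in papilloma (adjusted p = 0.0777). Retnlg, which encodes a resistin-like protein, differed by -0.88 and -0.94 (adjusted p = 0.00666 and 0.00769), short of the difference of 1, and was called lower in tumor with the 7 columns (-1.04). The gate on bright Gr-1 was meant to leave out other cell types, and the study's methods report a high purity after the sort. Marker lists of other cell types are given below as RNA measured in the sorted samples, with the probe of highest signal in each, which does not rank the genes by RNA amount. In bulk samples such as these, fewer cells of a type and less RNA per cell cannot be told apart.

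In papilloma against papilloma skin, 3 member probes were higher (Ptgs1, Ptgds and Ltc4s) and 1 was lower (Alox15), where 2.18% of all probes were higher and 1.00% lower. In tumor against tumor skin, 3 were higher (Ptgs1, Ptgs2 and 1 of 2 Ptges probes) and 2 were lower (Ptgds and Alox15), where 2.71% of all probes were higher and 1.51% lower. Between the lesions, 0 member probes were higher in tumor than in papilloma by limma and 2 were lower (Ptgds and Ltc4s), against 0.113% and 0.334% of all probes; 5 of the 12 had an unadjusted p under 0.05, as did 14.4% of all probes. Between the skin groups, 0 were higher in tumor skin than in papilloma skin by limma and 1 was lower (Alox15), against 0.138% and 0.122%, and 6 had an unadjusted p under 0.05, as did 22.7% of all probes. The median difference of the 12 probes was 0.188, 0.068, -0.01 and 0.223 in these 4 comparisons, beside -0.006, -0.019, -0.015 and -0.008 over all probes. The comparisons share groups and are not independent of each other.

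**Figure D1:**
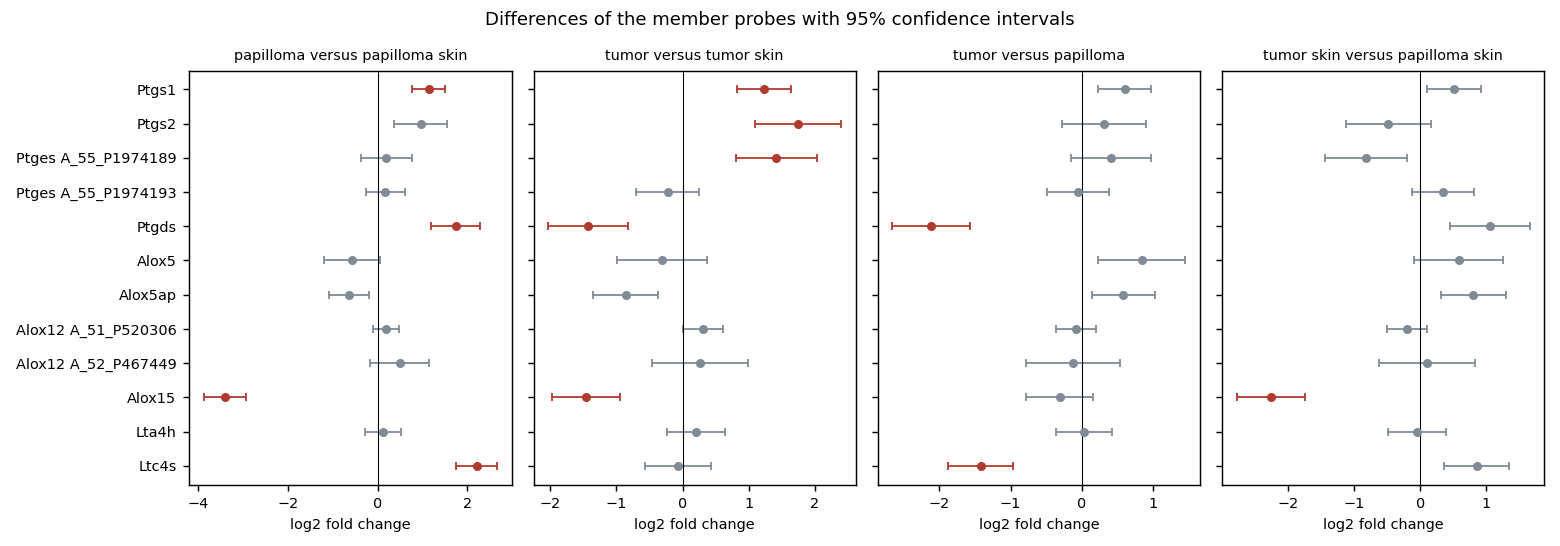
Log2 fold change of each member probe (points) with its 95% confidence interval (bars) in 4 comparisons; red marks called probes and grey the others. Alox15 was 3.41 lower and Ltc4s 2.21 higher in papilloma than in papilloma skin, and Ptgds was 1.74 higher there but 1.43 lower in tumor than in tumor skin.

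Ptgs1 and Ptgs2 encode the 2 cyclooxygenases, the first made in many tissues at all times and the second induced in inflammation. Both probes had higher values in every lesion column than in the skin columns of the same stage, and the promoters are printed for that reason. Of the 10 members, 8 had a promoter of 300 bases, 250 before the start of the gene to 50 after it, in the RefSeq table on build GRCm38.p6. Searched on both strands were the AP-1 site TGANTCA, the cAMP response half-site CGTCA, the E-box CACGTG, the C/EBP palindrome TTGCGCAA, the GC box GGGCGG and the TATA box TATAAA. Of 32851 promoters of that length, 7.81%, 20.8%, 7.15%, 0.183%, 35.7% and 13.6% held them in that order. Capitals mark matches; a match is a description, not a site or a cause. Ptgs1 lies at chr2:36230176-36230475 on the + strand and Ptgs2 at chr1:150099781-150100080 on the + strand.
Ptgs1: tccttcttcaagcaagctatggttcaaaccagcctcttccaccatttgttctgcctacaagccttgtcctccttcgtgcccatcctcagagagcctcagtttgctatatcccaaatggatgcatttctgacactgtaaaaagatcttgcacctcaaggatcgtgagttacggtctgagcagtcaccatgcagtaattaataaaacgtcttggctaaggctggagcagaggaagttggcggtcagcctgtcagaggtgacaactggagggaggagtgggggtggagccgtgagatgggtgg
Ptgs2: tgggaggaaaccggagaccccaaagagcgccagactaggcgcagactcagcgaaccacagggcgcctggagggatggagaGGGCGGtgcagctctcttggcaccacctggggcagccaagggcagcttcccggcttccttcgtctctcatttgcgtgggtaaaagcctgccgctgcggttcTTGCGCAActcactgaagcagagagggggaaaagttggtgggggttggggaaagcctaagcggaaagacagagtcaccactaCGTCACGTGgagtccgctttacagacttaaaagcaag
In the Ptgs2 window the GC box began at -170, the C/EBP palindrome at -69, the half-site at 14 and the E-box at 17 from the start, the last 2 overlapping. The Ptgs1 window held 0 matches to these 6 motifs, which says only that these letters were not in it.

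Ptgs1 was measured at 9.93 and 9.84 in papilloma skin, 10.43 and 10.35 in tumor skin, 10.94, 11.21 and 10.90 in papilloma, and 11.43 and 11.81 in tumor. The 4 groups did not overlap, in the order papilloma skin, tumor skin, papilloma, tumor. Ptgs1 rose by 1.13 in papilloma over papilloma skin (SE 0.162, adjusted p = 0.00626), a 2.20-fold difference, and by 1.23 in tumor over tumor skin (SE 0.177, adjusted p = 0.00667). The steps of 0.61 from papilloma to tumor (adjusted p = 0.169) and 0.51 from papilloma skin to tumor skin (adjusted p = 0.157) were not called. Within the slide that held replicate 1 of every group, lesions lay 1.01 above skin at both stages, and within the slide that held papilloma skin 2 and papilloma 2 the difference was 1.37. With the 7 columns Ptgs1 was 1.18 higher in papilloma (adjusted p = 0.0441) and 1.42 higher in tumor (adjusted p = 0.0297), both called. Over all alternatives the adjusted p ran from 0.00524 to 0.474 in papilloma and from 0.00583 to 1 in tumor. The tumor call was lost without tumor 2 (1.05, adjusted p = 0.0564) and with slide as a term (1.10, adjusted p = 0.0910).

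Ptgs2 was measured at 14.05 and 13.66 in papilloma skin, 13.69 and 13.05 in tumor skin, 14.52, 15.12 and 14.78 in papilloma, and 14.94 and 15.30 in tumor. All 5 lesion columns lay above all 4 skin columns, while the lesions overlapped each other. Each array carried 10 spots of this probe, and their standard deviation within an array was 0.0441 to 0.113, which is the technical spread of the spots alone. Between the columns of a group the standard deviation was 0.250 to 0.457. Ptgs2 rose by 1.75 in tumor over tumor skin, a 3.36-fold difference (SE 0.283, adjusted p = 0.0100). In papilloma over papilloma skin the difference was 0.95 with a 95% interval of 0.36 to 1.55 (SE 0.258, adjusted p = 0.0720), which was not called. The stage difference, the tumor effect minus the papilloma effect, was 0.79 (adjusted p = 0.382), so that the lesion effects were not shown to differ. Within slides, papilloma lay 0.47 and 1.47 above papilloma skin and tumor 1.25 above tumor skin. Over the alternatives the tumor difference ran from 1.24 to 2.14. From the scanner files, quantile normalized and corrected for slide, the papilloma difference was 1.44 and called (adjusted p = 0.0314), over a range of 0.0222 to 0.516 for the alternatives. The tumor call was lost with the 7 columns (1.93, adjusted p = 0.0501), without tumor 2 (1.57, adjusted p = 0.0816) and with slide as a term (1.55, adjusted p = 0.114), over a range of 0.00856 to 1.

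Keratinocyte markers were read beside Ptgs1 and Ptgs2. Of 16 probes for 8 keratinocyte genes, 3 were higher in papilloma and 4 in tumor than in the skin around them, and 0 were lower by limma in either comparison. At an unadjusted p under 0.05 there were 5 and 8, beside 20.7% and 26.9% of all probes. The called probes were of Krt6a (3.38 in papilloma and 3.74 in tumor) and Krt6b, and in tumor also of Krt14 (3.29). The 2 Krt6b probes were 3.29 and 4.88 higher in papilloma and 3.83 and 7.23 higher in tumor. Of those 5 and 8 probes, 1 and 2 had lower values in the lesion: a Trp63 probe (-0.47 and -0.39) and, in tumor, a Dsg3 probe (-0.93). With the 7 columns the called probes were of Krt1 (2.45), Krt6a and Krt6b (1 probe) in papilloma. In tumor they were of Krt5 (2.27), Krt1 (3.88), Krt6a and Krt6b (2 probes), and Krt14 was not called. The summed level of the list, on the log2 scale, was 13.85 and 13.29 in papilloma skin, 13.06 and 13.97 in tumor skin, 15.36, 14.35 and 14.21 in papilloma, and 14.42 and 16.08 in tumor. The probe of highest signal, by group mean, was of Trp63 in both skin groups, Krt5 in papilloma and Krt6b in tumor, and none of its probes was at background on all 6 arrays with a full slope. Platelet markers, of interest because platelets express Ptgs1, summed to 9.23 to 10.84 outside tumor 2 and to 12.20 in it, with the highest signal from Ppbp in tumor and from Pf4 in the other groups, 2 of 8 probes at background and 1 (Ppbp) higher in tumor than in tumor skin. Ppbp, which encodes a platelet chemokine, was 5.54 higher in tumor than in tumor skin. In papilloma Ppbp was 1.77 higher than in papilloma skin and not called (adjusted p = 0.153), and it was called there with the 7 columns (2.48). Their part in the cyclooxygenase results was not tested.

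Ptges encodes the inducible terminal synthase of prostaglandin E2, and its 2 probes gave different results. Probe A_55_P1974193, at chr2:30744995-30745054 on mm9, lay between 13.42 and 14.09 in all 9 columns. Probe A_55_P1974189, at chr2:30748214-30748273 on mm9, was measured at 7.09 and 6.59 in papilloma skin, 6.06 and 5.99 in tumor skin, 7.05, 7.13 and 6.92 in papilloma, and 7.05 and 7.84 in tumor. On the latter the tumor skin columns were the lowest, and the signal of tumor skin 2 was not well above background, which limits the size of the tumor difference. This probe was 1.42 higher in tumor than in tumor skin (SE 0.269, adjusted p = 0.0173), while the former differed by -0.23 with an interval of -0.70 to 0.25 (adjusted p = 0.527). In papilloma against papilloma skin the differences were 0.19 (interval -0.37 to 0.76) and 0.17 (interval -0.26 to 0.60). The tumor call on A_55_P1974189 stood with the 7 columns (1.82, adjusted p = 0.0179) and was lost without tumor skin 1 (1.45, adjusted p = 0.0550), tumor skin 2 (1.39, 0.0617) or tumor 2 (1.02, 0.0923) and with slide as a term (1.31, 0.155), over a range of 0.0150 to 1. On the slide shared by replicate 1 of each group it was 0.99 higher in tumor than in tumor skin. Over the alternatives that difference ran from 0.60 to 2.99.

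**Figure D2:**
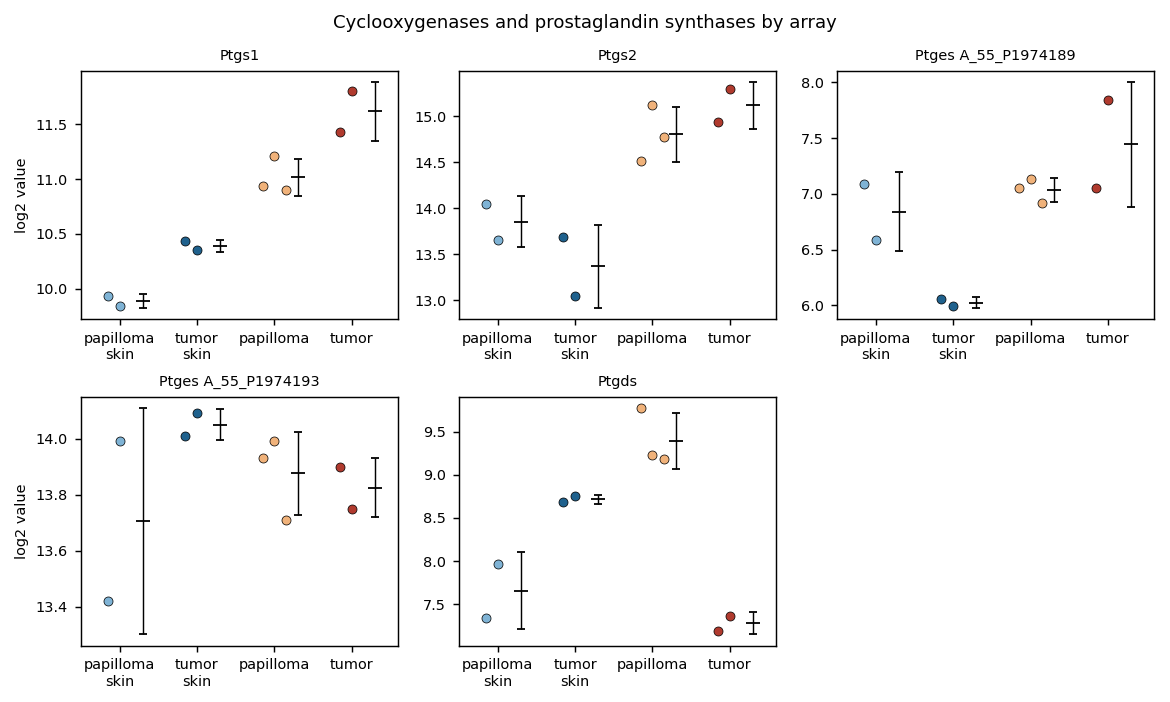
Log2 value of each array (points) by group for the cyclooxygenase and prostaglandin synthase probes, with the group mean and standard deviation (bars). Ptgds lay at 9.18 to 9.77 in papilloma and at 7.19 to 7.37 in tumor.

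Ptgds encodes a synthase that turns prostaglandin H2 into prostaglandin D2, and Ltc4s encodes leukotriene C4 synthase, which joins leukotriene A4 to glutathione. Both had their highest values in papilloma, so their promoters are printed together. On GRCm38.p6, from RefSeq, Ptgds lies at chr2:25469700-25469999 on the - strand and Ltc4s at chr11:50238483-50238782 on the - strand, and capitals mark matches to the same 6 motifs.
Ptgds: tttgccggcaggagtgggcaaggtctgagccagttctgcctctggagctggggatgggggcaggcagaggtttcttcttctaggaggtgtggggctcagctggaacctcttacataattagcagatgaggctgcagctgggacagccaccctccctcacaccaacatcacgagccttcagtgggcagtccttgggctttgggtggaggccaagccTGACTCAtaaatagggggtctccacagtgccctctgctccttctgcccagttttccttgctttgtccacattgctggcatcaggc
Ltc4s: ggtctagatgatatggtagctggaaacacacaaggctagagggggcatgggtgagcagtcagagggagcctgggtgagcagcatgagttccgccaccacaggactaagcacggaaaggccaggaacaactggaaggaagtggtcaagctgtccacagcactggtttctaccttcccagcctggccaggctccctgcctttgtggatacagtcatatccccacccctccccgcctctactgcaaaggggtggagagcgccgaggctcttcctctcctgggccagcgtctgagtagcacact
The Ptgds window held 1 match, an AP-1 site at -35, and the Ltc4s window held 0, which says only that these letters were not in it.

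Ptgds was measured at 7.34 and 7.97 in papilloma skin, 8.68 and 8.75 in tumor skin, 9.77, 9.23 and 9.18 in papilloma, and 7.19 and 7.37 in tumor. Papilloma columns lay above every other column, and tumor columns lay below both tumor skin columns. Ptgds rose by 1.74 in papilloma over papilloma skin, 3.34-fold (SE 0.239, adjusted p = 0.00535), fell by 1.43 in tumor against tumor skin (SE 0.262, adjusted p = 0.0152) and fell by 2.11 in tumor against papilloma (SE 0.239, adjusted p = 0.0124). Tumor skin exceeded papilloma skin by 1.06, which was not called (adjusted p = 0.0883). The stage difference of -3.17 was called (SE 0.354, adjusted p = 0.0498), as 1 lower and 0 higher of the 12 probes by limma, where 0.0144% and 0.0126% of all probes were lower and higher and 4 members and 14.7% of all probes had an unadjusted p under 0.05. The median stage difference was 0.091 for the members and 0.002 for all probes. That call was lost when any 1 of the 9 columns was left out, with values of -3.49 to -2.85. Leaving out papilloma 1, papilloma 2 or papilloma 3 left 2, 2 and 0 of all probes called for the stage difference.

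For Ptgds the value table and the scanner files differed most in papilloma skin 1 and tumor 1. From the scanner files, quantile normalized and corrected for slide, Ptgds was 12.02 in papilloma skin 1, where the column gave 7.34, and 4.80 in tumor 1, where the column gave 7.19. With those files the papilloma difference turned to -0.64 (adjusted p = 0.651), and with the 6 arrays of full slope it was 1.97 (adjusted p = 0.685), over a range of 0.00360 to 0.929. With the 7 columns the differences were 1.42 in papilloma against papilloma skin (adjusted p = 0.0656), -1.34 in tumor against tumor skin (0.0628), -2.02 between the lesions (0.143) and -2.76 for the stage difference (0.497), none called. Over the alternatives these adjusted p-values ran from 0.00944 to 1, 0.00758 to 0.962 and 0.0291 to 0.816 for the last 3. The differences ran from -0.97 to 2.06 in papilloma, -2.92 to -0.88 in tumor and -3.65 to -1.92 between the lesions. Within slides, papilloma lay 2.44 and 1.26 above papilloma skin, tumor against tumor skin gave -1.48, and tumor against papilloma gave -2.58 and -1.86. With slide as a term the papilloma call stood (1.80, adjusted p = 0.0429), and those in tumor against tumor skin (-1.55, adjusted p = 0.110) and against papilloma (-2.17, adjusted p = 0.157) did not. The tumor against tumor skin call was also lost without tumor skin 2, tumor 1 or tumor 2 (-1.40, -1.34 and -1.52), and the lesion call without papilloma 3, tumor 1 or tumor 2 (-2.22, -2.02 and -2.20).

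**Figure D3:**
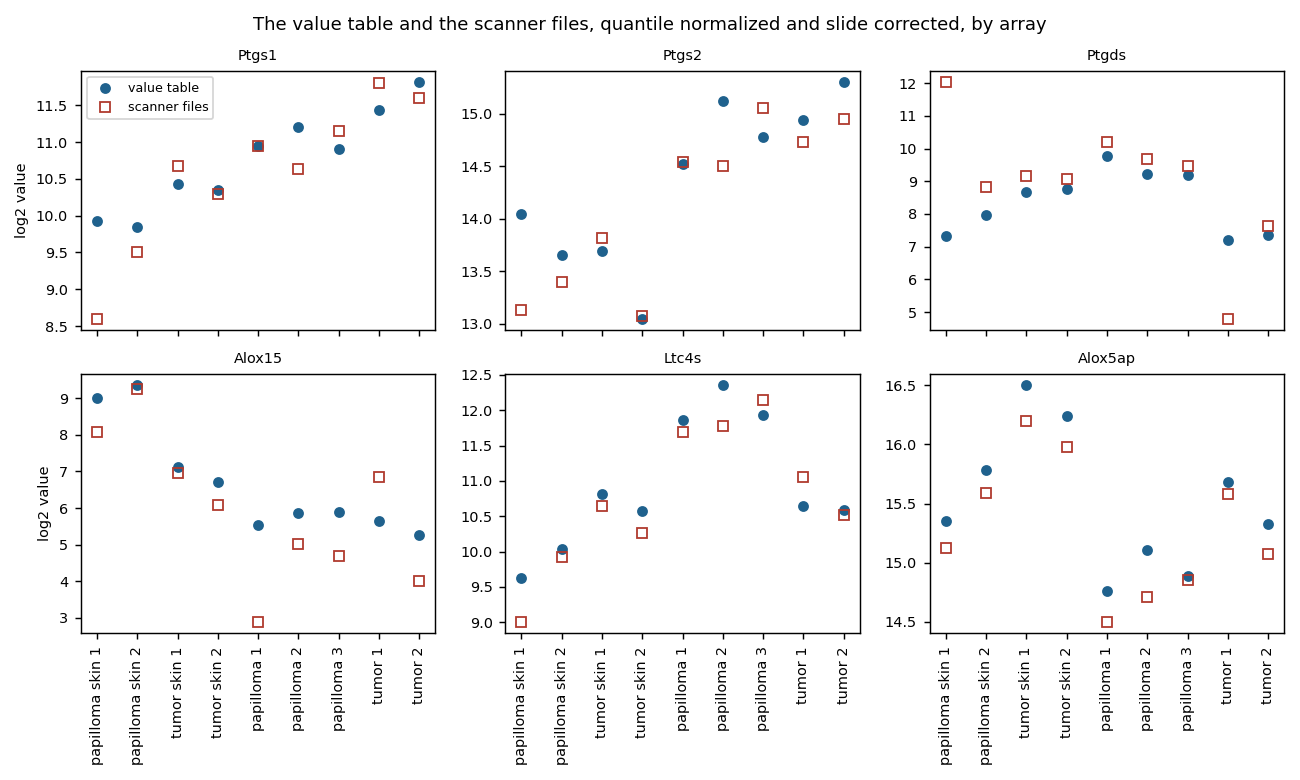
Log2 value of 6 members by array in the deposited value table (filled) and in the scanner files, quantile normalized and slide corrected (open). Ptgds in papilloma skin 1 was 7.34 in the former and 12.02 in the latter.

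Alox5 encodes 5-lipoxygenase, and Alox5ap the membrane protein that hands it arachidonic acid. Alox5 was measured at 13.08 and 13.59 in papilloma skin, 14.21 and 13.63 in tumor skin, 12.47, 13.08 and 12.74 in papilloma, and 13.84 and 13.38 in tumor. Alox5ap was measured at 15.35 and 15.78 in papilloma skin, 16.50 and 16.24 in tumor skin, 14.76, 15.11 and 14.89 in papilloma, and 15.68 and 15.33 in tumor. Both were lowest in papilloma and highest in tumor skin by group mean. The neutrophil markers Ly6g, Mmp8 and Retnlg were also lowest in papilloma and highest in tumor skin. Retnlg was 16.62 and 16.80 in papilloma skin, 17.56 in both tumor skin columns, 15.82, 15.86 and 15.80 in papilloma, and 16.72 and 16.52 in tumor. Csf3r and the Itgam probes had their lowest mean in another group. Whether these patterns are linked was not tested. No Alox5 difference was called: it was -0.57 in papilloma against papilloma skin (interval -1.19 to 0.04), -0.31 in tumor against tumor skin (interval -0.99 to 0.36) and 0.84 in tumor against papilloma (adjusted p = 0.225). Alox5ap differed by -0.86 in tumor against tumor skin (SE 0.213, adjusted p = 0.0418), short of the difference of 1 needed for a call, and by -0.64 in papilloma against papilloma skin (adjusted p = 0.101).

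Alox15 encodes a lipoxygenase that makes 12- and 15-hydroxy acids and, in mice, is known from eosinophils and resident macrophages. It was measured at 9.02 and 9.35 in papilloma skin, 7.12 and 6.72 in tumor skin, 5.55, 5.88 and 5.89 in papilloma, and 5.66 and 5.27 in tumor. Papilloma skin was highest, tumor skin next, and the lesions were lowest and overlapped. Only papilloma 2 of 3 papilloma arrays and tumor 1 of 2 tumor arrays were well above background in the scanner files, so that the sizes of the lesion differences are limited by signal at background in papilloma 1, papilloma 3 and tumor 2. Files and columns were matched by label here, although the columns of papilloma 2, papilloma 3 and tumor 1 ranked closest to other files. On tumor 1, an array without a full slope, 94.3% of all probes passed, so that its flag says little. Alox15 fell by 3.41 in papilloma against papilloma skin (SE 0.204, adjusted p = 0.000201), and by 1.46 in tumor against tumor skin (SE 0.223, adjusted p = 0.00838). It also fell by 2.26 in tumor skin against papilloma skin (SE 0.223, adjusted p = 0.0209), and the stage difference of 1.95 was not called (adjusted p = 0.0844). Within slides the papilloma difference was -3.47 and -3.47, the tumor difference -1.47 and the skin difference -1.90.

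With the 7 columns Alox15 stayed called in papilloma (-3.57, adjusted p = 0.0160) and in tumor (-1.65, adjusted p = 0.0358), but not between the skin groups (-2.43, adjusted p = 0.273). Over the alternatives the adjusted p ran from 0.000155 to 0.422, from 0.00684 to 1 and from 0.0132 to 1 in these comparisons. With slide as a term only the papilloma call stood (-3.38, adjusted p = 0.00719), the tumor difference being -1.50 (adjusted p = 0.0969) and the skin difference -2.21 (adjusted p = 0.292). The papilloma, tumor and skin differences ran from -5.96 to -2.36, -2.93 to -0.28 and -3.81 to -1.53 over the alternatives. From the scanner files, quantile normalized and corrected for slide, tumor 1 was 6.86, above tumor skin 2 at 6.09. The tumor call was lost without tumor 2 (-1.26), and the skin call without any 1 of the 4 skin columns, papilloma 2 or papilloma 3, over a range of -2.46 to -2.06. Between the skin groups, fewer of all probes were also called without any 1 of these columns, so that this loss was not particular to Alox15.

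Eosinophil markers were read beside Alox15. Of 8 probes for 7 genes, 4 were lower in both lesion comparisons (Ear1, Ear2, Ccr3 and Il5ra), 0 were higher in papilloma by limma, and the 2 Siglec5 probes were higher in tumor than in tumor skin (1.38 and 1.59); 6 had an unadjusted p under 0.05 in each comparison. Ccr3, the eotaxin receptor, was 10.69 and 10.59 in papilloma skin, 10.04 and 9.76 in tumor skin, 8.16, 8.59 and 8.29 in papilloma, and 7.88 and 7.85 in tumor. The summed level of the list was 14.14 and 13.77 in papilloma skin, 13.21 and 13.17 in tumor skin, 11.91, 12.32 and 12.29 in papilloma, and 13.21 and 13.05 in tumor. The sums of tumor and tumor skin overlapped. The highest signal was of Ear2 in both skin groups and, in both lesion groups, of Siglec5, which encodes Siglec F, also known from neutrophils in tumors. Epx, which encodes eosinophil peroxidase, was above background on 0 of the 6 arrays with a full slope. With the 7 columns 4 probes were called lower in each lesion comparison, and the Siglec5 calls were lost. Monocyte and macrophage markers had 2 of 14 probes lower in both lesion comparisons, both of Emr1, with the highest signal from Csf1r in every group, 0 probes at background and sums of 15.72 and 15.56 in papilloma skin, 15.38 and 15.21 in tumor skin, 14.80, 14.95 and 15.04 in papilloma, and 15.15 and 14.84 in tumor. At an unadjusted p under 0.05 the list had 11 probes in papilloma, 8 lower (of Emr1, Ccr2, Fcgr1, Cx3cr1 and Csf1r) and 3 higher (C1qa, C1qb and C1qc, by 0.92, 0.50 and 1.03), and 6 in tumor, 5 lower (of Emr1, Ccr2, Cx3cr1 and Csf1r) and 1 higher (C1qa, by 0.59). Ccr2, a monocyte chemokine receptor, differed by -2.28 in papilloma and -2.01 in tumor, and was not called. In tumor skin against papilloma skin, where Alox15 fell as well, 0 eosinophil probes were called by limma, and at an unadjusted p under 0.05 there were 5 lower (of Epx, Ear1, Ear2, Ccr3 and Siglec5) and none higher. One Emr1 probe was called lower there (-1.12), and 4 monocyte and macrophage probes were lower and 1 higher at an unadjusted p under 0.05. The part of either cell type in the Alox15 result was not tested.

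**Figure D4:**
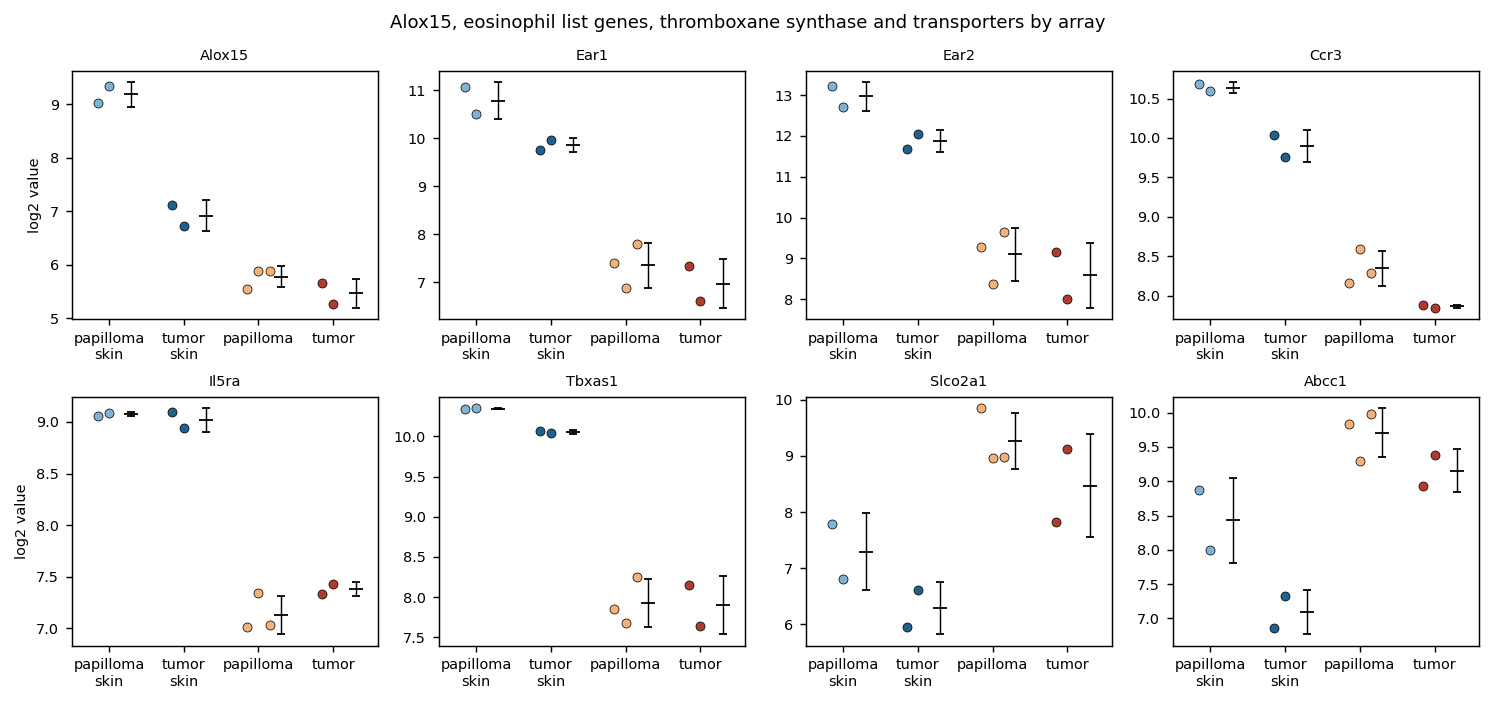
Log2 value of each array (points) by group with the mean and standard deviation (bars) for Alox15, 4 called genes of the eosinophil list, thromboxane synthase (Tbxas1) and 2 transporters. Siglec5 of that list, called higher in tumor than in tumor skin (1.38 and 1.59), is not among them. Alox15, Ear1, Ear2, Ccr3, Il5ra and Tbxas1 were lower in every lesion array than in every skin array, with Tbxas1 at 10.04 to 10.35 in skin and 7.64 to 8.25 in lesions.

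Alox12 encodes the platelet-type lipoxygenase. Its probes lay at 5.02 to 5.51 (A_51_P520306) and 5.17 to 6.24 (A_52_P467449), both with mean levels under 6. The former was well above background on 3 of 9 arrays, none with a full slope, and the latter on 6 of 9, of which 3 had a full slope. Neither was called in any of the 5 comparisons.

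Lta4h encodes the hydrolase that makes leukotriene B4 from leukotriene A4, and Ltc4s opens the branch to the cysteinyl leukotrienes. Lta4h lay between 10.04 and 10.50 in all 9 columns, with differences of 0.12 in papilloma against papilloma skin (interval -0.28 to 0.52) and 0.20 in tumor against tumor skin (interval -0.23 to 0.64). Ltc4s was measured at 9.63 and 10.04 in papilloma skin, 10.81 and 10.57 in tumor skin, 11.86, 12.35 and 11.93 in papilloma, and 10.65 and 10.59 in tumor. Papilloma lay above every other column, papilloma skin below, and tumor overlapped tumor skin. Ltc4s rose by 2.21 in papilloma over papilloma skin, 4.62-fold (SE 0.197, adjusted p = 0.000819), and fell by 1.42 in tumor against papilloma (SE 0.197, adjusted p = 0.0236). Tumor differed from tumor skin by -0.07 (interval -0.56 to 0.43), and the stage difference of -2.28 was not called (adjusted p = 0.0621).

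Within slides, Ltc4s lay 2.23 and 2.30 higher in papilloma than in papilloma skin, and tumor against papilloma gave -1.21 and -1.75. Over the alternatives these differences ran from 1.75 to 2.88 and from -1.71 to -1.05. The papilloma call stood with the 7 columns (adjusted p = 0.0294), with slide as a term (2.29, adjusted p = 0.00924) and in the scanner files corrected for slide (2.40, adjusted p = 0.0106), over a range of 0.000691 to 0.408. The lesion call was lost with the 7 columns (-1.45, adjusted p = 0.208), with slide as a term (-1.51, adjusted p = 0.151) and without any 1 of the 5 lesion columns (-1.52 to -1.27), over a range of 0.0187 to 0.948.

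Mast cells are a known source of prostaglandin D2 and leukotriene C4, and their markers were read beside Ptgds and Ltc4s. Hpgds, which encodes the hematopoietic prostaglandin D2 synthase, is on the pathway lists and not among the members. It was 5.28 and 4.95 in papilloma skin and 5.77 and 5.36 in tumor skin. In papilloma it was 6.03, 6.20 and 6.51 and in tumor 6.17 and 6.05. These values lay near the minimum level of 6, and Hpgds was not called. Of 10 mast cell probes for 9 genes, 0 were called by limma in either comparison of lesion with skin, and 1 (Gata2) was lower in tumor than in papilloma. At an unadjusted p under 0.05 there were 3 in papilloma and 4 in tumor, beside 20.7% and 26.9% of all probes. The 3 in papilloma were higher: Tpsab1 (1.73, adjusted p = 0.0102), which missed a call by its mean level of 5.86, Fcer1a (1.27, adjusted p = 0.0764) and 1 of 2 Tpsb2 probes (0.85, adjusted p = 0.110). In tumor Tpsab1 (1.15) and Fcer1a (0.99) had higher values and Kit (-1.36) and Gata2 (-0.80) lower ones. The only call of a mast cell probe between lesion and skin with the 7 columns was of Kit, lower in tumor (-1.88). Summed levels were 10.74 and 11.17 in papilloma skin, 11.37 and 11.66 in tumor skin, 11.41, 11.37 and 10.83 in papilloma, and 11 and 11.09 in tumor, with the highest signal from Mcpt4 in papilloma skin and papilloma and from Kit in tumor skin and tumor, and Ms4a2 at background. Fibroblast markers, with the highest signal from Dcn in both skin groups and Col1a2 in both lesion groups, summed to 14.64 and 13.56 in papilloma skin, 12.95 and 13.08 in tumor skin, 15.52, 15.04 and 15.15 in papilloma, and 12.27 and 13.81 in tumor, with 0 of 6 probes called by limma in papilloma against papilloma skin, 3 at an unadjusted p under 0.05, and none at background. Those 3 had higher values in papilloma: Col1a1 (1.88), Col1a2 (1.78) and Col3a1 (1.28). All 3 were called higher with the 7 columns (2.45, 2.40 and 1.78), and Col1a1 and Col3a1 were called higher in tumor than in tumor skin (2.93 and 1.67). With the 9 columns 1 fibroblast probe was lower in tumor than in tumor skin: Dcn fell by 1.38 (adjusted p = 0.0452). Endothelial markers had 3 of 7 probes higher in papilloma than in papilloma skin (Pecam1, Cdh5 and 1 of 2 Kdr probes) and 1 higher in tumor than in tumor skin (Cdh5, 2.39, adjusted p = 0.0237), where the other Kdr probe, the one of higher signal, differed by -1.30 (adjusted p = 0.0507), with sums of 12.46 to 14.02 over the 9 columns, and with the 7 columns 1 higher in each lesion comparison (Cdh5). Dendritic cell markers had 2 of 13 probes lower in tumor than in tumor skin (H2-Ab1 and Cd74) and T cell markers 1 of 6 (Cd3d). Neither dendritic call stood with the 7 columns. Cd3d, part of the T cell receptor complex, was called lower in both lesion comparisons with them (-1.16 in papilloma and -1.57 in tumor). With the 9 columns the T cell list had 3 probes at an unadjusted p under 0.05 in papilloma, of Cd3d (-0.998) and Cd3g (-0.83) lower and Thy1 (1.38) higher, and in tumor only Cd3d. In tumor against papilloma, where Ptgds and Ltc4s fell, 0 fibroblast, dendritic or endothelial probes were called by limma. At an unadjusted p under 0.05 there, 5 of 6 fibroblast probes, 8 of 13 dendritic probes and 4 of 7 endothelial probes had lower values in tumor, and 1 dendritic probe a higher one. The list medians were -1.86, -0.93 and -0.81. The part of these cell types in the Ptgds and Ltc4s results was not tested.

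**Figure D5:**
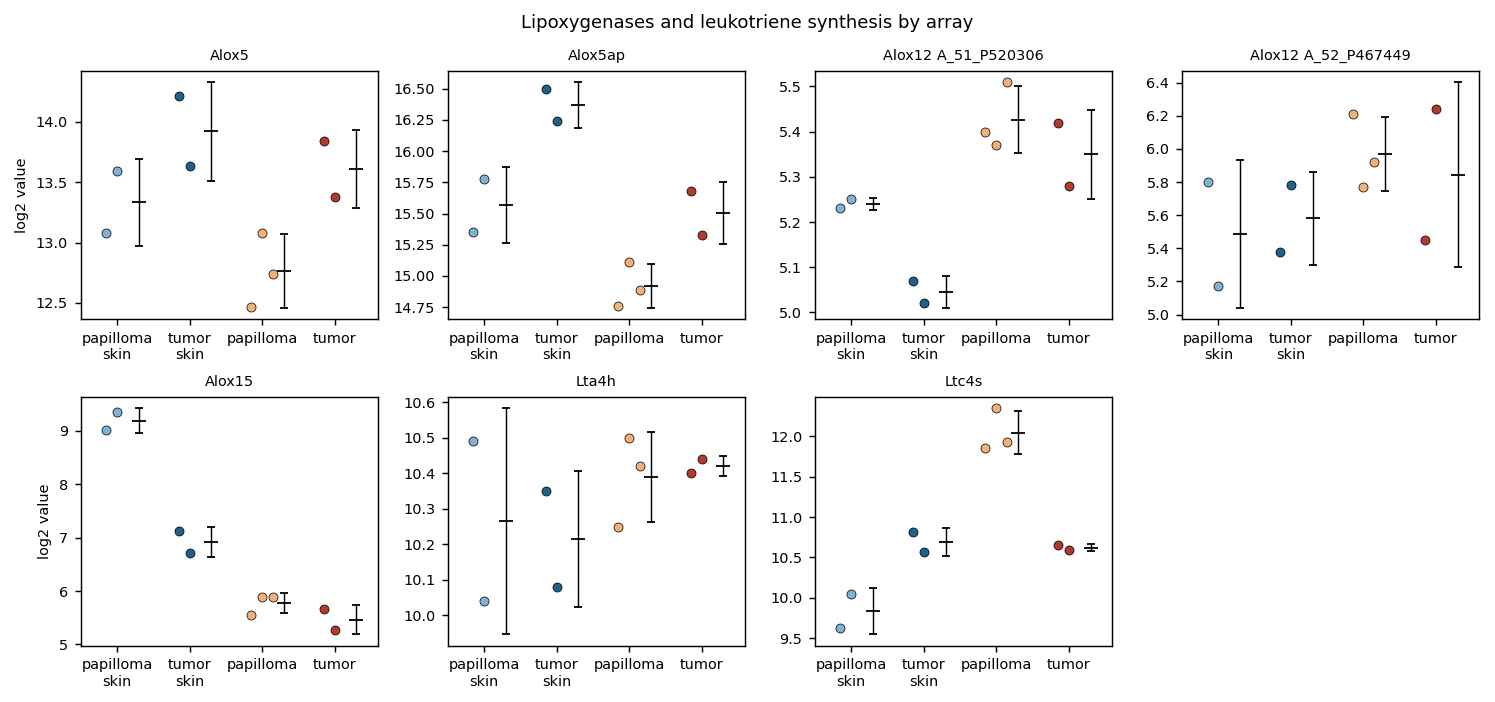
Log2 value of each array (points) by group for the lipoxygenase and leukotriene synthesis probes, with the group mean and standard deviation (bars). Ltc4s lay at 11.86 to 12.35 in papilloma and 10.59 to 10.65 in tumor.

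Upstream and beside the members, 5 lists of pathway genes held 77 probes. Of these, 5 (6.49%) were called in papilloma against papilloma skin and 7 (9.09%) in tumor against tumor skin, beside 3.18% and 4.21% of all probes. Of 20 probes for phospholipases A2, 1 was higher in papilloma than in papilloma skin (1 of 2 Pla2g5 probes, by 1.07, adjusted p = 0.0154) and 0 were called in tumor against tumor skin by limma. In tumor 7 had an unadjusted p under 0.05, as did 26.9% of all probes. The median difference of the list was 0.144 and 0.194, beside -0.006 and -0.019 over all probes. Of 19 probes for the other prostanoid enzymes, 1 was lower in both lesion comparisons: Tbxas1, thromboxane synthase, was 10.34 and 10.35 in papilloma skin, 10.07 and 10.04 in tumor skin, 7.85, 7.67 and 8.25 in papilloma, and 8.15 and 7.64 in tumor. Tbxas1 fell by 2.42 in papilloma against papilloma skin (SE 0.209, adjusted p = 0.000745) and fell by 2.15 in tumor against tumor skin (SE 0.229, adjusted p = 0.00237). The other Tbxas1 probe, A_55_P2175571, lay at 4.90 to 5.53, under the minimum level, and differed by -0.44 in papilloma and 0.12 in tumor. By the median of both probes the differences were -1.43 and -1.02, both called. Within slides the papilloma difference of the first probe was -2.49 and -2.68 and the tumor difference -1.91. The calls stood with the 7 columns (-2.42 and -2.41, adjusted p = 0.0228 and 0.0223) and without each column in turn. Over the alternatives its adjusted p ran from 0.000674 to 0.516 and from 0.00214 to 1. Its differences ran from -2.83 to -1.16 in papilloma and from -2.73 to -1.02 in tumor. The median of that list was -0.134 and -0.031. The other Pla2g5 probe, A_51_P207892, differed by 0.18 in papilloma against papilloma skin. The call of Pla2g5 was lost by the median of both probes (0.62), with the 7 columns (0.90) and without papilloma skin 1 (0.90) or papilloma 3, over differences of 0.62 to 1.96.

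Of 18 probes for the other lipoxygenases and leukotriene enzymes, 2 were higher in papilloma than in papilloma skin and 1 in tumor than in tumor skin, with list medians of -0.056 and -0.108. Both probes of Cyp4f18, an enzyme that inactivates leukotriene B4, were higher in papilloma, by 1.07 and 1.02 (adjusted p = 0.0189 and 0.0226). A probe of Dpep2, a dipeptidase of the cysteinyl leukotriene branch, was 1.14 higher in tumor (adjusted p = 0.0273), and the other Dpep2 probe, A_55_P2067362, of higher signal, overlapped between the groups and differed by 0.40. With the 7 columns none of these 3 was called (0.73, 0.68 and 0.96), and 1 other probe, of Ggt1, was called lower in tumor than in tumor skin (-1.10). The Cyp4f18 calls were lost without papilloma skin 1 or any 1 papilloma column, and the Dpep2 call without any 1 of the tumor or tumor skin columns and by the median of both probes (0.77). Over the alternatives the Cyp4f18 differences ran from 0.46 to 1.97 and from 0.45 to 1.97, and that of Dpep2 from 0.41 to 1.42.

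Of 17 receptor probes, 0 were called in papilloma against papilloma skin by limma, and 4 had an unadjusted p under 0.05 there, as did 20.7% of all probes. In tumor against tumor skin 2 were higher, both of the cysteinyl leukotriene receptor Cysltr1 (1.70 and 1.46, adjusted p = 0.0369 and 0.0190). List medians were -0.025 and 0.041. The Cysltr1 calls were lost with the 7 columns (1.85 and 1.45), without tumor skin 1, tumor 1 or tumor 2, and for 1 probe without papilloma 3, over differences of 0.93 to 2.13 and 0.63 to 1.78. Among prostaglandin E2 receptors, Ptger1 lay at 5.72 to 6.62, Ptger2 at 8.14 to 9.24, Ptger4 at 7.72 to 8.81 and the Ptger3 probes at 5.36 to 6.82 and 5.35 to 6.25, none called. Ptger4 differed by -0.56 in papilloma against papilloma skin (adjusted p = 0.0420), short of the difference of 1 needed for a call. Ltb4r1, the high-affinity receptor of leukotriene B4, lay at 12.81 to 13.57 and differed by 0.20 in papilloma (interval -0.13 to 0.53) and 0.56 in tumor (interval 0.20 to 0.92, adjusted p = 0.0614), and Ltb4r2 lay at 5.62 to 6.79.

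The 3 transporters, Slco2a1, which takes up prostaglandins, and Abcc1 and Abcc4, which export leukotriene C4 and prostaglandins, were all higher in tumor than in tumor skin. Slco2a1 was 7.78 and 6.81 in papilloma skin, 5.96 and 6.62 in tumor skin, 9.85, 8.97 and 8.99 in papilloma, and 7.82 and 9.12 in tumor. It rose by 1.98 in papilloma over papilloma skin (adjusted p = 0.0458) and by 2.18 in tumor over tumor skin (adjusted p = 0.0364). Cdh5 of the endothelial list was also called higher in both comparisons, while the Kdr probe of highest signal was not. The part of other cell types in the transporter results was not tested. Abcc1 rose by 2.07 (adjusted p = 0.0112) and Abcc4 by 1.41 (adjusted p = 0.0201) in tumor. In papilloma against papilloma skin, Abcc1 differed by 1.28 (adjusted p = 0.0530; within slides 0.97 and 1.31), which was not called, and Abcc4 by -0.11. Abcc1 was 9.84, 9.30 and 9.98 in papilloma and 8.93 and 9.38 in tumor. All 3 were also called in tumor with the 7 columns (2.83, 2.29 and 1.76), and Slco2a1 in papilloma was not (2.46, adjusted p = 0.0596, over a range of 0.00675 to 0.408). The tumor calls of all 3 were lost without tumor 2 (1.53, 1.84 and 1.06), that of Slco2a1 also without tumor skin 1, tumor skin 2, papilloma 2 or papilloma 3, and that of Abcc4 without tumor skin 1, and the papilloma call of Slco2a1 without papilloma skin 1, papilloma skin 2 or any 1 papilloma column. On the slide shared by replicate 1 of each group, they lay 1.86, 2.07 and 1.27 higher in tumor than in tumor skin. Over the alternatives the tumor differences ran from 1.53 to 3.01, 1.72 to 2.50 and 0.71 to 1.76, and the papilloma difference of Slco2a1 from 1.49 to 4.06. For Abcc4, 5 of the 6 scanner settings gave 0.71 to 0.91. With slide as a term the Tbxas1 calls stood, and those of the other named pathway probes were lost at differences of 1.03 to 2.39, where the fit without it gave 1.02 to 2.18. With replicate number as a block the Tbxas1 calls also stood, and the others were lost at differences of 1.01 to 2.18. That replicates pair was not shown.

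The genes most like the members in pattern were sought by Pearson correlation (r) over the 9 columns, among the 17046 probes that had a RefSeq accession and a mean level of at least 6. Ptgs2 was closest to Gm10094 (0.9955), Denr (0.991) and Gtf2e2 (0.9866). The Ptges probe of higher signal was closest to Tprkb (0.993), Gnmt (0.9808) and Megf11 (0.9736), and Alox5 to Cntnap5a (0.992), Dgkg (0.9899) and Nt5dc1 (0.9874). Alox5ap was closest to Gda (0.9963) and 1100001G20Rik (0.9963), and Alox15 to Fgfr1 (0.987), 2900097C17Rik (0.9864) and F5 (0.9863). Each r is the highest among many with 9 points that fall into 4 groups, and is a description.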

How the data were processed

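Gr-1bright neutrophils were measured on 9 single-color arrays. The authors deposited 1 table of log2 values, processed with limma, with near equal column medians. The study's methods name quantile normalization and ComBat against the slide, and which of these steps the table holds is not said. Per the file headers, the scanner files hold intensity units from Feature Extraction 10.7.3.1, not scaled between arrays. No spot of a non-control probe was saturated. Group means were fitted to the log2 table with limma 3.58.1 in R 4.3.3 over 55681 probes, with Benjamini-Hochberg adjustment. Called probes had an adjusted p of at most 0.05, a difference of at least 1 and a mean level of at least 6. Named genes were every member probe, called probes of the pathway lists (at most 6 a list and comparison) and the receptors of prostaglandin E2 and leukotriene B4, beside the 3 genes most like each of 5 members, of which 1 is not given. Members and lists were chosen with earlier results of these data known. Alternatives were 15 planned settings (scanner values, slide, replicate block, scaling, filters, 7 columns), leaving out each of 9 columns, and 1 added later. Pairing of lesion and skin replicates was not established. The number of arrays limits the precision.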

Additional observations from a re-analysis of the deposited data

Results flagged for a closer look

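The Ptgds stage difference was called in the 9 columns and in few alternatives: the difference in tumor against tumor skin minus that in papilloma against papilloma skin was -3.17. It was -2.76 with the 7 columns, which leave a single column in papilloma skin and in tumor, and was then not called. The main fit called 15 of all 55681 probes for the stage difference. Slide as a term, the replicate block and the scanner settings of 9 arrays called 0 of all probes. The lost call was therefore not particular to Ptgds in those settings. Over the alternatives it ran from -3.49 to -1.23 and lost its call in 19 of 25.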

How the results depend on the processing

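The count of called members in papilloma against papilloma skin was 4 and lay within 1.5 times of that in 20 of 25 settings. No member call stood with the scanner files in 4 settings (slide term, no slide correction, 75th percentile, 6 arrays with a full spike-in slope). The first 3 of these called 0 of all 55155 probes, so that these losses were not particular to the members. The last left 1 array in every group but papilloma. In tumor against tumor skin, where 5 were called, no member call stood with any of the 6 scanner settings or with slide as a term. Fewer stood with the 7 columns. Of all 55155 probes, the same 3 scanner settings called 0, ComBat for slide 122 and ComBat with normexp 721. Slide as a term called 209 of 55681, where the main fit called 2346. The calls in tumor against papilloma (2), tumor skin against papilloma skin (1) and the stage difference (1) were lost with all 6 scanner settings, slide as a term and the 7 columns. Of all probes, 0 were called there with slide as a term or the scanner settings of 9 arrays, normexp apart. With normexp 17, 1 and 0 of all probes were called. The losses with the 7 columns, which leave 1 column in papilloma skin and in tumor, were not particular to the members either. The stage count was also 0 with an intensity trend (10 of all 55681 probes) and 2 with the median per gene (31 of 34797 genes). Leaving out each column gave 4 to 4, 0 to 5, 0 to 2, 0 to 1 and 0 to 0 in that order. Leaving out papilloma 1, papilloma 2 or papilloma 3 called 89, 155 and 46 of all probes in tumor against papilloma. In tumor skin against papilloma skin these fits called 9, 7 and 8 of all probes. Each of these counts was below that of the main fit, so that the losses there were not particular to the members. Leaving out a column of a 2-column group also called fewer of all probes in every comparison that used the group. A column left alone in its group was assumed to vary like the other groups. The 6-array setting was chosen after seeing the data.

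Ptgds reversed in papilloma against papilloma skin with the scanner files: -0.64 with ComBat for slide, -0.53 with a slide term, -0.97 with no slide correction and -0.74 with normexp background correction. The cause was not tested.

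With the replicate block the counts were 2, 0, 0, 0 and 0, beside 552, 737, 1, 0 and 0 of all 55681 probes. Whether replicates were paired was checked by correlating deviations from group means, which gave 0.0822 and 0.376 for the papilloma pairs and 0.275 for tumor. In groups of 2 columns the deviations mirror each other, so that both tumor pairs must give the same value. Replicate 1 of every group was also on the same slide, so that the check could not tell pairing from slide. Replicate numbers were not shown to pair.

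With 2 or 3 arrays a group, small differences could not be resolved, and signals near background (the Alox12 probes on 6 and 3 arrays, Ptges A_55_P1974189 in tumor skin 2, and Alox15 in 3 lesion arrays) set a floor on the values.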
